A study of Mus musculus with 60 samples.

Results

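A set of 9 digestive enzyme genes of the pancreas was followed mouse by mouse in RNA of the spleen, the organ that lies against the tail of the pancreas. The genes were Clps, Cela3b, Cela2a, Cpa1, Cpb1, Pnlip, Pnliprp1, Ctrb1 and Cel. All probe sets named for 1 of the 9 genes in the annotation of the 430A and 430B arrays were taken, which gave 12 of the 45037 probe sets, for 8 of the 9 genes, where the annotation names 18193 genes in all. No probe set was named for Pnlip, which is not analysed here. A further probe set was assigned to Cela3a and Cela3b together. It is given by its identifier and stands for neither gene. All 13 probe sets were on the 430A array. The genes were chosen with values of these mice known, so their signals below are a description by single mouse, asked as a check of whether RNA of the neighbouring tissue was present.

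Spleen leukocytes, untreated and not cultured, were collected from females of 3 strains at 2 and at 4 weeks of age, with 5 mice in each of the 6 groups and 30 mice in all. NOD mice develop autoimmune diabetes spontaneously, NON and C57BL/6 (C57) mice do not, and served as controls, with NON sharing more of its ancestry with NOD. No group carried a transgene or received an agent, and each mouse had a 430A and a 430B array, or 60 arrays. The cells were not sorted, so each array measures a mixture of splenic leukocytes and anything collected with them, and how the pancreas was trimmed from the spleen is not given in the sources used here.

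Acinar cells form most of the exocrine pancreas. They store digestive enzymes, many of them as inactive precursors, and secrete them into the gut, and the mRNAs of these enzymes are among the most abundant in the gland. Transcription of the enzyme genes in acinar cells depends on PTF1, a complex of PTF1A, RBPJL and a common E protein. PTF1 binds a bipartite element made of an E-box and a TC box.

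The promoters of Cpb1, Cela2a and Ctrb1 are shown because these were the 3 genes whose brightest probe set, in 1 mouse, reached both 200 and 4 times the median of all mice. They run from 250 bases before to 50 bases after the start of transcription, and are printed as RefSeq gives them on GRCm38.p6, 5′ to 3′ on the strand of the gene. Capitals mark CACCTG, a form of the E-box, and TTTCCC, a form of the TC box, each searched on both strands. The regions are chr3:20275684-20275983 for Cpb1, chr4:141825956-141826255 for Cela2a and chr8:111690961-111691260 for Ctrb1, all on the minus strand.
Cpb1: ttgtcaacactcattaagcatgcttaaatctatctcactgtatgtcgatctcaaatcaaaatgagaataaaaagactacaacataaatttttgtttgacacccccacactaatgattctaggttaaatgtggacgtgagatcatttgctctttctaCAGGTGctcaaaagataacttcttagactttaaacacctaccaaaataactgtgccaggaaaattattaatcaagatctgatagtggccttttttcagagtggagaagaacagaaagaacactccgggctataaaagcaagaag
Cela2a: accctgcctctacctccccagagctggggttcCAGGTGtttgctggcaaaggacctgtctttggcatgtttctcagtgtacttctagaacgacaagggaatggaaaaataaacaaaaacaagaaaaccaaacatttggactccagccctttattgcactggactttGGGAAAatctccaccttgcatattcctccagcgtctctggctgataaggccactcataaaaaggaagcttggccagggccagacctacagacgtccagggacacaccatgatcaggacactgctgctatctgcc
Ctrb1: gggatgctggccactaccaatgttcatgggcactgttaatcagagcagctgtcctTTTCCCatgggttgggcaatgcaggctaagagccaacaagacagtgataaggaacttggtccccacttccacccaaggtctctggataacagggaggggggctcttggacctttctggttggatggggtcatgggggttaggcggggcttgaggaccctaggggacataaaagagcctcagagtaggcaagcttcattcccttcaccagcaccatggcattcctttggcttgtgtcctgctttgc
The Cpb1 promoter held CACCTG at position -94 from the start, that of Cela2a held CACCTG at -218 and TTTCCC at -84, and that of Ctrb1 held TTTCCC at -195. Among the 8 of the 9 genes with an entry in the promoter table (Clps has none), 4 held CACCTG, 4 held TTTCCC and 2 (Cel and Cela2a) held both. Of 32851 promoters of 300 bases, 20.2% held CACCTG, 25.2% held TTTCCC and 4.86% held both. These are matches of letters and not measured binding sites.

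Signals are MAS 5.0 intensities on a linear scale, with an array median of 122 over all mice and probe sets. Beside that median the 12 probe sets were dim, with 194 of their 360 signals (53.9%) below 50 and 14 at 200 or more. Of these 14, 8 were of the Cela3b probe set 1415884_at. One mouse stood apart over the whole array. Mouse 3 of the 4 week old NOD group correlated with its group at a median r of 0.739, while the remaining 29 mice lay between 0.825 and 0.876 with theirs, and it was the highest of the 30 mice for 17.8% of all probe sets. Its acinar signals are therefore given separately. The ratio of the 3′ to the 5′ signal of Gapdh, which rises with degradation of RNA, ranged from 0.744 to 4.00 over the mice.

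The carboxypeptidase genes set 2 mice apart from the other 28. Cpb1 encodes procarboxypeptidase B1, which removes basic residues from the end of a peptide. At 2 weeks its signals were 5.1, 55.2, 6.7, 266 and 52 in mice 1 to 5 of NON, 31.3, 18.9, 14.7, 23.5 and 108 in NOD, and 6, 10, 55.9, 14.2 and 35 in C57. At 4 weeks they were 9.8, 14.1, 9.2, 6.3 and 38.1 in NON, 30.4, 75.5, 11.9, 47.7 and 32.5 in NOD, and 55, 83.4, 36.7, 11 and 11.7 in C57. Mouse 4 of NON and mouse 5 of NOD at 2 weeks were the 2 highest of the 30 mice, at 9.86 and 3.99 times the median mouse, and otherwise the groups overlapped. Cpa1, for procarboxypeptidase A1, which removes aromatic and aliphatic residues, had a median of 4.55. It was at 66.8 in mouse 4 of NON and 37.4 in mouse 5 of NOD at 2 weeks. None of the other 28 mice was above 9.8.

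**Figure D1:**
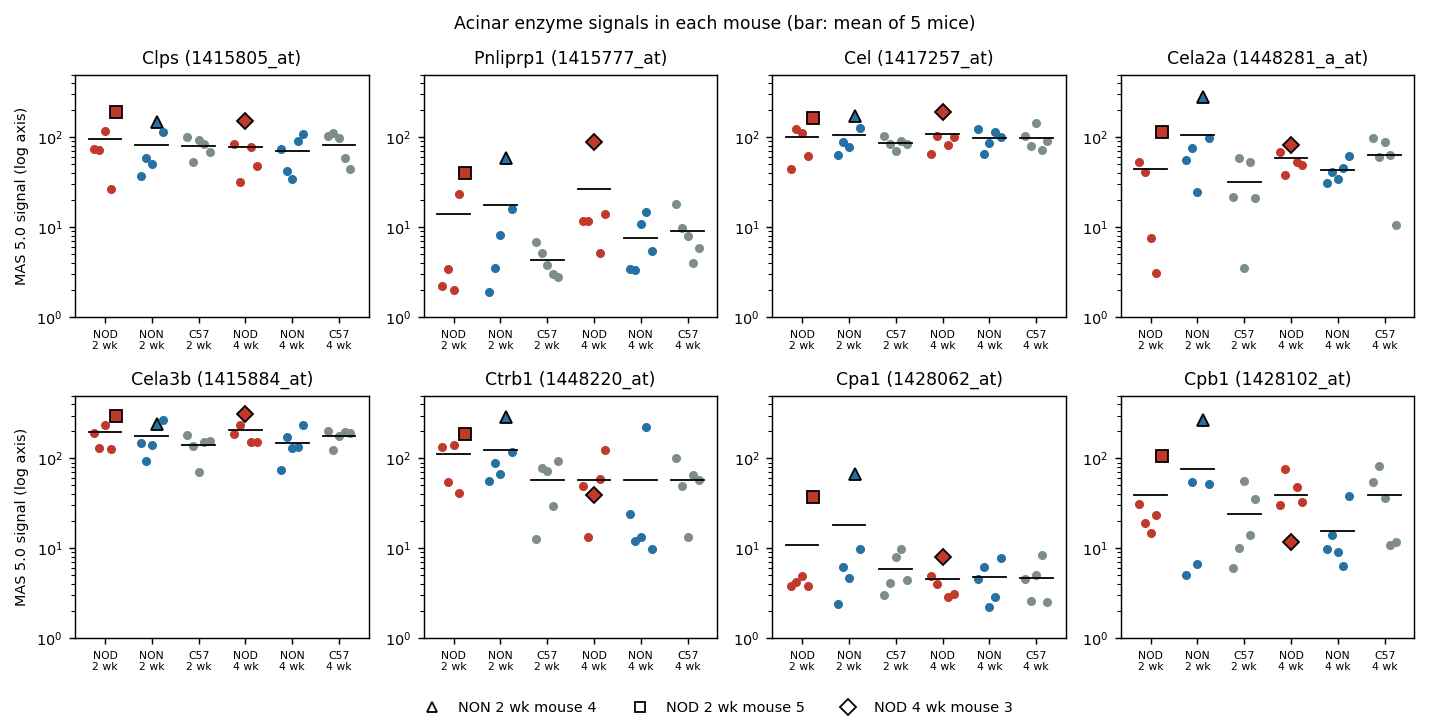
MAS 5.0 signal (log axis) of 8 acinar genes in each of the 30 mice, by strain and age, 1 point per mouse, with the triangle for mouse 4 of 2 week old NON, the square for mouse 5 of 2 week old NOD and the diamond for mouse 3 of 4 week old NOD. For Cpb1 the triangle is at 266 and the square at 108, above the other 28 mice, which reach 83.4.

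The proteases with a serine in the active site differed among themselves. Cela2a encodes a pancreatic elastase. Its signals at 2 weeks were 56.5, 75.8, 24.8, 282 and 97.7 in NON, 53.5, 41.2, 7.5, 3.1 and 115 in NOD, and 21.9, 59.1, 3.5, 53.5 and 21.4 in C57. At 4 weeks it ranged from 30.8 to 62.5 in NON, from 38.5 to 82.5 in NOD and from 10.6 to 97.8 in C57, so that mouse 4 of NON at 2 weeks was the only mouse above 115.3. Ctrb1 encodes chymotrypsinogen B1. At 2 weeks it was at 56.6, 89.1, 67.4, 286 and 119 in NON, 133, 55.3, 141, 41.4 and 187 in NOD, and 12.7, 78.4, 72.5, 29.6 and 93 in C57. At 4 weeks its signals were 23.9, 12, 13.4, 225 and 9.7 in NON, 48.9, 13.3, 38.8, 59 and 126 in NOD, and 100, 48.9, 13.2, 66 and 57.4 in C57. Ctrb1 thus had another high mouse, mouse 4 of 4 week old NON, in which Cpb1 was at 6.3, Cpa1 at 2.9 and Cela2a at 46. The 2 mice numbered 4 are of different ages and are not the same animal.

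Cela3b, for another elastase-family protease, had 4 probe sets of its own that behaved differently. On 1415884_at the 30 mice ranged from 71 to 312 with a median of 166, and mouse 4 of NON and mouse 5 of NOD at 2 weeks were at 240.4 and 297, within the range of the other mice. On 1437326_x_at the median was 58.5, and the same 2 mice were at 245 and 186, above the 136 of the next mouse. On 1435611_x_at they were at 199.6 and 219, against at most 133 in the other 28, and on 1415883_a_at, with a median of 6.2, at 39.1 and 15.8, against at most 19.8. The probe set assigned to Cela3a and Cela3b together, 1435012_x_at, had a median of 21.5 and was at 229 and 130 in these mice and at most 92.2 in the others. The 1415884_at probe set, which has the highest mean signal of the 4, thus had a small excess in mouse 4 of NON, at 1.45 times its median against 3.49 times on 1435611_x_at and 4.18 times on 1437326_x_at.

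For the genes of fat digestion, mouse 4 of NON and mouse 5 of NOD at 2 weeks were at 1.95 and 2.51 times the median mouse for Clps (1415805_at) and 1.89 and 1.79 times for Cel. Clps encodes colipase, the cofactor that anchors pancreatic lipase to fat droplets, and on 1415805_at it was at 149 and 191 in these mice, with a median of 76.3 and 150.3 in mouse 3 of 4 week old NOD. Its other probe set, 1438612_a_at, had a median of 3.5 and was at 47.2, 19.9 and 66.8 in these 3 mice. Cel encodes carboxyl ester lipase, which hydrolyses cholesteryl esters and is also made by the lactating mammary gland, and it was at 171, 162 and 191 in the same order with a median of 90.7. Pnliprp1, a homologue of pancreatic lipase, had a median of 6.3. In 2 week old mice it was at 1.9, 3.5, 8.1, 59.2 and 16 in NON, at 2.2, 3.4, 2, 23.4 and 40 in NOD and at 2.8 to 6.8 in C57. Mouse 3 of 4 week old NOD had the highest signal of the 30 mice for Pnliprp1 (88.8), Cel, 1438612_a_at of Clps and 1415884_at of Cela3b. In that mouse Cpb1 was at 11.9 and Ctrb1 at 38.8, both under their medians.

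**Figure D2:**
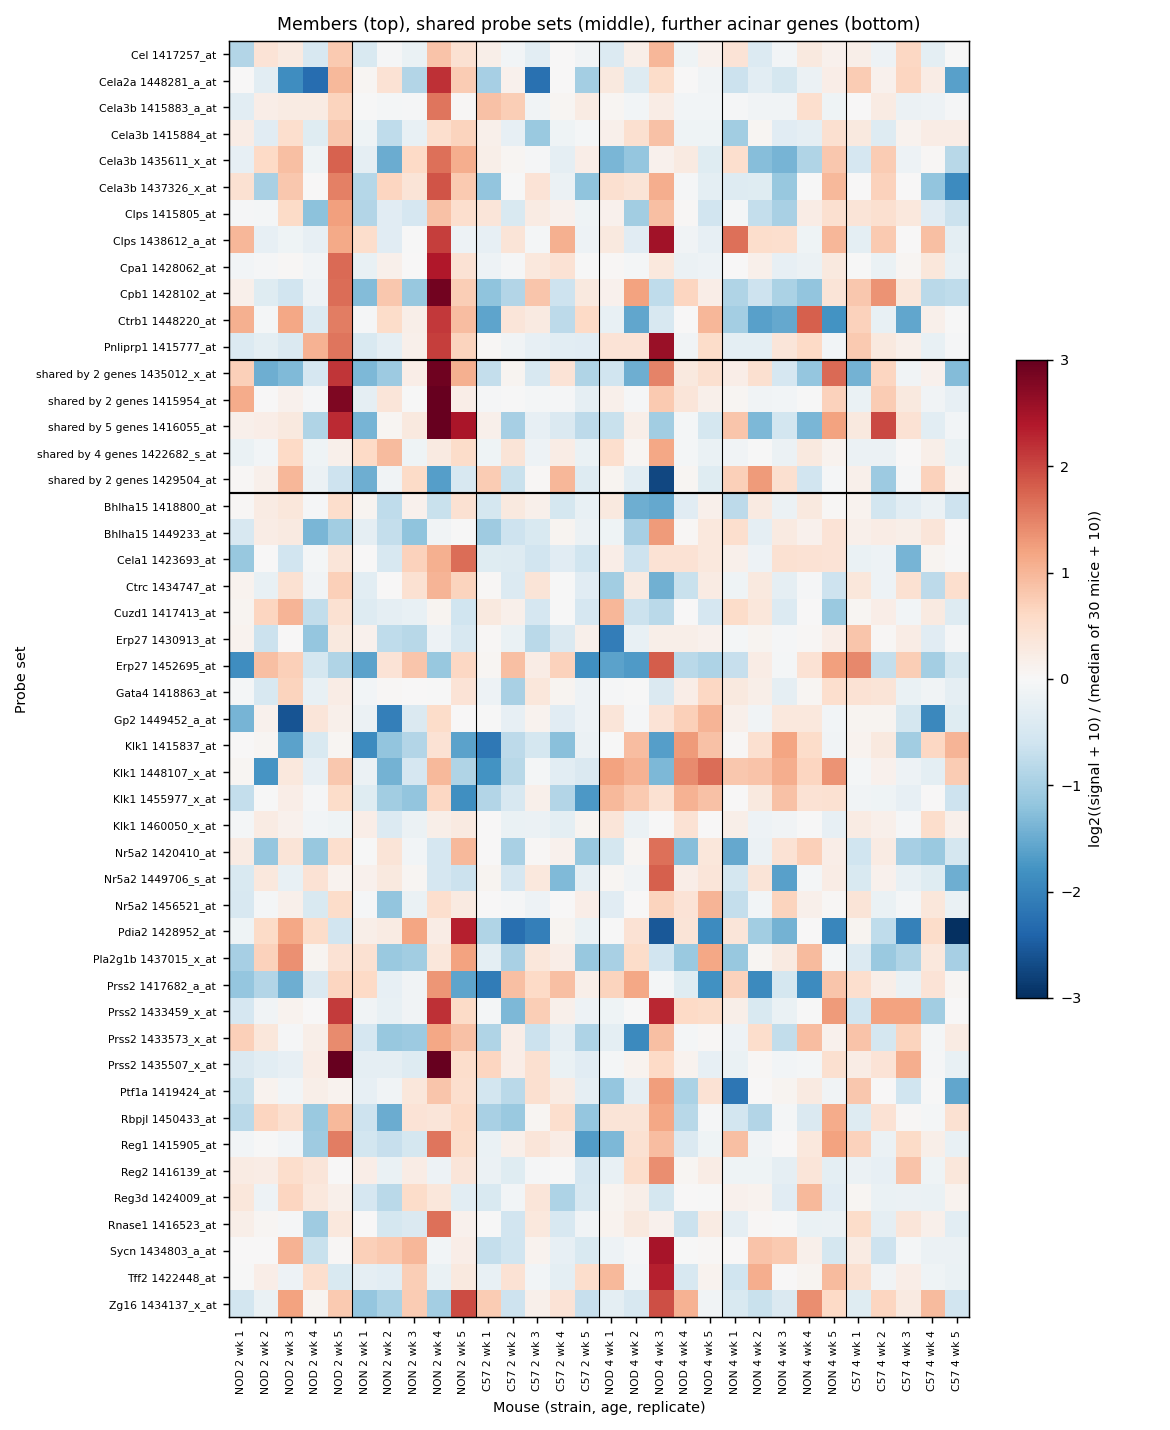
Log2 of (signal + 10) over (median of the 30 mice + 10) for each mouse (columns, by group) and probe set, with the member genes at the top, probe sets shared by several genes in the middle and other acinar genes below. The column of mouse 4 of 2 week old NON is high for Cpb1 (a signal of 266) and Cpa1 (66.8), and that of mouse 5 of 2 week old NOD is high for the same genes (108 and 37.4).

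A member gene was counted as raised in a mouse where the brightest of its probe sets was at 200 or more and at 4 or more times its median over the 30 mice. In mouse 4 of 2 week old NON, 3 of the 8 genes were raised (Cpb1, Cela2a and Ctrb1), and in the other 29 mice none was. On a probe set other than the brightest of its gene, Cela3b (1437326_x_at) passed as well, in the same mouse. Over all probe sets, 0.251% were raised in that mouse by the same rule, against a median of 0.278% over the mice and 2.44% in mouse 3 of 4 week old NOD. Cpa1 and Pnliprp1, with medians of 4.55 and 6.3, stayed under 200 in every mouse. Mouse 5 of 2 week old NOD had no gene past the rule, although Cpb1 was at 3.99 times its median.

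By rank, mouse 4 of 2 week old NON was the highest of the 30 mice for 6 of the 12 probe sets and among the 3 highest for 11, while over all 45037 probe sets it was the highest for 2.65% and among the 3 highest for 9.66%. Mouse 5 of 2 week old NOD was the highest for 2 and among the 3 highest for 10, against 4.08% and 11.7% of all probe sets. Mouse 3 of 4 week old NOD was the highest for the other 4 and among the 3 highest for 6, against 17.8% and 27.9%. These 3 mice held the highest signal for all 12, so no other mouse of any strain was the highest for any. These ranks share probe sets of the same genes and were not tested.

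**Figure D3:**
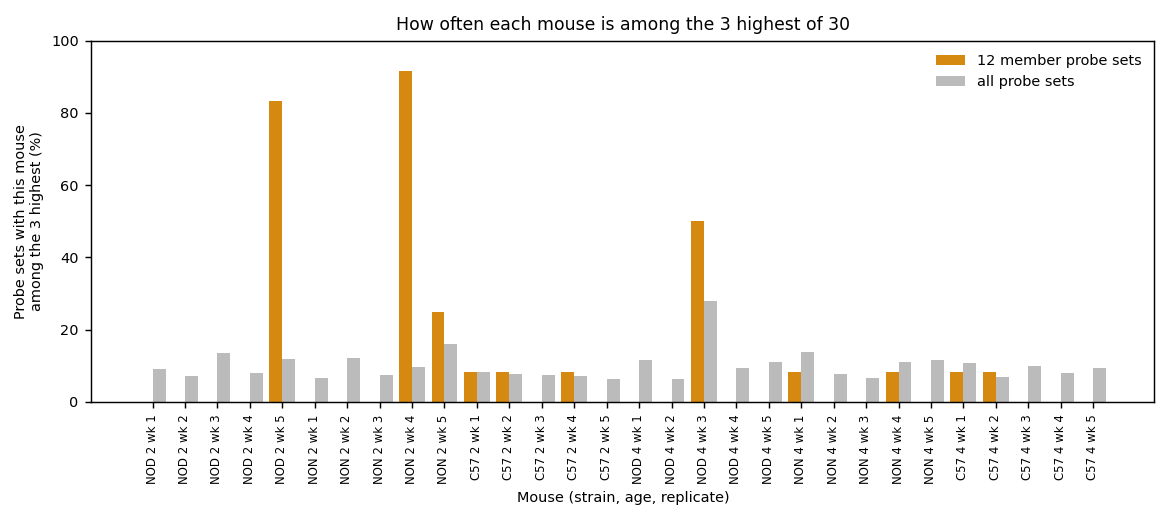
Percent of probe sets for which each mouse was among the 3 highest of the 30, for the 12 acinar probe sets and for all 45037. Mouse 4 of 2 week old NON and mouse 5 of 2 week old NOD are among the 3 highest for 11 and 10 of the 12, against 9.66% and 11.7% of all probe sets.

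The mean of log2(signal + 10) over the 8 genes, with the brightest probe set for each gene, gives 1 acinar level per mouse. It was 7.46 in mouse 4 of 2 week old NON and 7.0 in mouse 5 of 2 week old NOD, followed by 6.36 in mouse 5 of 2 week old NON, 6.34 in mouse 3 of 4 week old NOD and 6.20 in mouse 1 of 4 week old C57. The median mouse was at 5.65 and the lowest at 5.18. By group, the level was 6.06 ± 0.89 in NON (SD, n = 5), 5.84 ± 0.68 in NOD and 5.49 ± 0.12 in C57 in the younger mice. At 4 weeks it was 5.46 ± 0.31 in NON, 5.86 ± 0.28 in NOD and 5.76 ± 0.32 in C57. The 6 groups overlapped, and the spread was largest in the 2 groups that hold the highest mice and smallest in 2 week old C57. In such bulk samples more cells of a type and more RNA per cell cannot be told apart.

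The 8 genes were also compared in pairs, as a description. The Pearson correlation of log2(signal + 10) ranged from 0.12 to 0.64 over the 28 pairs, with a median of 0.42, and all 28 were above 0. Without mouse 4 of NON and mouse 5 of NOD at 2 weeks it ranged from -0.12 to 0.50 with a median of 0.20, and 22 were above 0. The 2 mice are the highest for these same genes, so a fall is built into leaving them out. All 8 signals of a mouse come from the same array.

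The strains were compared at each age, and the ages within each strain, by limma over the 38293 probe sets with a signal of 50 or more in 5 or more mice. This filter kept 8 of the 12 probe sets and left out those of Cpa1 and Pnliprp1 and 1 each of Clps and Cela3b. Since the genes were chosen with these values known, the counts are given without reading anything from them. With limma and an adjusted p under 0.05, 0 of the 8 differed between strains at 2 weeks, where 1.66% of all kept probe sets did, and 0 at 4 weeks, where 1.51% did. Between the ages, 0 of 8 passed in NOD (0.0157% of all), NON (0.0601%) and C57 (0.107%), and 0 passed the test of whether the age change differed between strains (0.00261%). A 1-way analysis of variance and an unpaired comparison of ages without limma's shared variance, as named in the study's methods, also called 0. At an unadjusted p under 0.05, limma's strain tests passed 0 at both ages (14.1% and 13.4% of all), the age test passed 1 in NOD (7.49% of all), 1 in NON (11.1%) and 0 in C57 (8.22%), and the interaction test passed 0 (6.9%). The 1 in NON was Ctrb1, with a log2 difference of 4 minus 2 weeks of -1.58 (standard error 0.67, limma adjusted p = 0.421). Its mean signals were 56.8 ± 94.3 and 124 ± 93.9 (SD, n = 5). The 1 in NOD was 1435611_x_at of Cela3b, with a log2 difference of -1.08 (standard error 0.45, limma adjusted p = 0.634) and means of 42.4 ± 24.6 at 4 and 105 ± 69.7 at 2 weeks.

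For scale, the 4 week old NOD and C57 groups had Cpb1 means of 39.6 ± 23.8 and 39.6 ± 30.7 (SD, n = 5), and the 2 week old NON group, with its 1 high mouse, had 76.9 ± 108. For Cela2a the means were 107 ± 101.4 in NON, 44.1 ± 45.2 in NOD and 31.9 ± 23.6 in C57 for the younger mice, and 43 ± 12.4, 58.3 ± 17.2 and 64.3 ± 34.1 at 4 weeks. For Cel they lay between 86.9 ± 12 (2 week old C57) and 109 ± 48.6 (4 week old NOD). The SD also exceeded the mean for Cpa1 (18 ± 27.4) in 2 week old NON, Ctrb1 (56.8 ± 94.3) in 4 week old NON and Pnliprp1 (26.3 ± 35.1) in 4 week old NOD, among others.

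Other genes of acinar cells, not all of them for enzymes, were taken from a list of 36. Of these, 27 had a probe set of their own (47 probe sets, 27 kept by the filter). Prss2 encodes an anionic trypsinogen. Its probe set 1433459_x_at had a median of 38 and was raised, by the rule above, in mouse 4 of 2 week old NON (208) and mouse 3 of 4 week old NOD (219), with mouse 5 of 2 week old NOD at 195 and no other mouse above 105.9. Its probe set 1435507_x_at, chosen here by its likeness to the acinar level, was at 171 in mouse 4 of NON and 165 in mouse 5 of NOD at 2 weeks, against a median of 12 and at most 36.6 in the other 28. On 1417682_a_at, the brightest of Prss2, mouse 4 of NON was at 322 (rank 1). There mouse 5 of NOD was at 196 (rank 8), and the other 28 mice reached 286. On 1433573_x_at of Prss2 the same mice were at 206 and 247, and the other 28 reached 173. A probe set assigned to 5 pancreatic amylase genes together, 1416055_at, had a median of 21.4. At 2 weeks it was at 1.9, 22.7, 28.7, 598 and 162 in NON, at 24.9, 25.8, 28.1, 6.8 and 138 in NOD and at 5.6 to 24.8 in C57, and in 4 week old mice it did not exceed 114. Another, 1415954_at, assigned to the trypsinogen genes Try4 and Try5 together, was at 292 in mouse 4 of NON and 85.4 in mouse 5 of NOD at 2 weeks, and at most 19.6 in the others. Rnase1, for pancreatic ribonuclease, was at 367 in mouse 4 of NON and 139 in mouse 5 of NOD at 2 weeks, with a median of 110.05 and at most 166 in the others.

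Not all acinar genes followed. The transcription factor gene Ptf1a was at 110.1 in mouse 4 of NON and 61.7 in mouse 5 of NOD at 2 weeks with a median of 57, and its highest signal, 149.5, was in mouse 3 of 4 week old NOD. In the 2 younger mice, in that order, Rbpjl was at 0.333 and 1.15 times its median on 1421956_at. On 1450433_at it was at 1.33 and 2.11 times. Bhlha15 was at 0.573 and 1.51 times on 1418800_at, and 0.927 and 0.414 times on 1449233_at. Amy1, at most 18.9 in any mouse, was at 0.2 and 0.371 times. The shared probe set 1422682_s_at, which includes Prss1 and Prss3, was at 2 and 1.57 times. Another, 1429504_at of Rnpc3 and Amy1, was at 0.259 and 0.617 times. Of the 47 probe sets, mouse 4 of 2 week old NON was the highest for 8, against 2.65% of all probe sets. Mouse 3 of 4 week old NOD was the highest for 11 (17.8% of all) and mouse 5 of 2 week old NOD for 3 (4.08%). Further mice came between, with 5 in mouse 3 of 2 week old NOD (4.31% of all). Mouse 5 of 4 week old NOD (3.01%) and mouse 4 of 4 week old NON (3.26%) had 4 each. Pdia2, a disulfide isomerase of acinar cells measured on the 430B array, was raised in 1 mouse only, mouse 5 of 2 week old NON, at 887 with a median of 169, and was at 201 in mouse 4 of the same group and at 110.0 in mouse 5 of 2 week old NOD.

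By limma, 1 of the 27 kept probe sets of this list differed between strains at 4 weeks (1.51% of all kept probe sets), and 0 at 2 weeks, in the 3 age comparisons and in the interaction test. At an unadjusted p under 0.05 the counts of 27 were 2 between strains at 4 weeks (13.4% of all kept probe sets) and 3 at 2 weeks (14.1%), 1 for age in NOD (7.49%), 5 in NON (11.1%), 4 in C57 (8.22%) and 0 for the interaction (6.9%). The 1 was Klk1, a tissue kallikrein gene, on 1455977_x_at. At 4 weeks its signals were 128, 112, 87, 136 and 120.2 in NOD, 61.8, 76.7, 120.2, 85.2 and 86.8 in NON, and 55.7, 55, 49.3, 61.8 and 36.3 in C57. NOD and C57 did not overlap, and the means were 117 ± 18.7, 86.1 ± 21.5 and 51.6 ± 9.64 (SD, n = 5; limma adjusted p = 0.0333). The other Klk1 probe sets had limma adjusted p of 0.542 to 0.965 in this comparison. The count was 0 without any 1 of 12 of the 15 mice, 1 without mouse 1 or mouse 3 of NON, and 2 without mouse 3 of NOD.

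The signals of other tissues were summed over lists of marker genes. The 12 acinar probe sets summed to 2051 in mouse 4 of 2 week old NON, 1578 in mouse 5 of 2 week old NOD and 1159.5 in mouse 3 of 4 week old NOD, the 3 highest sums, at 3.42, 2.63 and 1.93 times the median mouse (600.5). Group ranges were 462 to 2051 in NON, 431 to 1578 in NOD and 523 to 576 in C57 for 2 week old mice, and 370.1 to 823, 613 to 1159.5 and 459.6 to 788 at 4 weeks. Islet markers (17 probe sets of 13 of 16 genes) summed to 641, 519 and 711 in the same 3 mice, with a median of 586, and none was raised in any mouse. Without the brightest, 1444027_at of Slc30a8, a setting chosen after seeing the data, these sums were 554, 491 and 666 with a median of 493. The 3 mice then ranked 5, 16 and 1. In mouse 4 of 2 week old NON some islet genes were higher and others lower than their median. Ins2, for insulin, was at 117, the highest of the 30 mice (median 49.5), Sst, for somatostatin, at 74.7 (median 26.1, rank 4) and Chgb, for a granin, at 24 (median 7.05, rank 5). Pdx1 on 1422174_at was at 0.141 times its median (rank 29), Ppy at 0.268 times (rank 28) and Chga at 0.634 times (rank 26). Of the 17 islet probe sets, 9 were above their median in that mouse and 10 in mouse 5 of 2 week old NOD. Duct and epithelial markers (15 probe sets of 9 of 10 genes) summed to 1361, 599.6 and 1687 with a median of 1321. One bright probe set of Epcam, 1447899_x_at, set this sum, with a median of 953.5 and a signal of 83.4 in mouse 5 of 2 week old NOD, the lowest of the 30. Without it, a setting chosen after seeing the data, the sums were 378, 516 and 859.7 with a median of 382, so that mouse 5 of NOD had the next to highest sum and mouse 4 of NON lay near the median. In mouse 5 of NOD the other Epcam probe set was at 89, Krt18 at 74 and Krt19 at 20.1, against medians of 25.8, 43.4 and 7.1. Other duct genes were below their median in this mouse, among them Krt7 (0.528 times) and Muc1 (0.857 times). Of the 15 duct and epithelial probe sets, 9 were above their median in mouse 5 of NOD and 6 in mouse 4 of NON. The part of these cell types in the acinar signals was not tested.

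For tissues outside the pancreas, adipose markers (12 probe sets of 6 of 8 genes) summed to 379.6 in mouse 4 of 2 week old NON and 789 in mouse 5 of 2 week old NOD, with a median of 589. Stomach markers (9 probe sets of 8 of 9 genes) summed to 1455 and 1952 with a median of 1471, and liver markers (12 probe sets of 6 of 7 genes) to 221 and 220.5 with a median of 281. Mesothelial markers (5 probe sets of 4 of 4 genes) summed to 148 and 197 with a median of 193. In mouse 3 of 4 week old NOD the stomach and mesothelial sums, 2287 and 504, were the highest of the 30 mice. One bright probe set, 1448156_at of Tff1, made up 1698.7 of this stomach sum. It was at 1.40 times its median in mouse 5 of 2 week old NOD. Leukocyte markers (19 probe sets of 12 of 13 genes), which check the labelled cells, summed to 34422 in mouse 4 of 2 week old NON, 39889 in mouse 5 of 2 week old NOD and 50459.7 in mouse 3 of 4 week old NOD, with a median of 45126 and 21228 to 57971 over all mice. Mouse 4 of NON was thus at 0.763 times the median mouse (rank 29 of 30) and mouse 5 of NOD at 0.884 times (rank 22). The 2 week old NON group had a mean of 34867 and ranged from 21228 to 45169, with mouse 4 near that mean. The 2 week old NOD group had a mean of 43674 and ranged from 36953 to 57971. The part of the leukocyte sums in the acinar signals was not tested. No mouse was without the leukocyte signals that its label gives, with the sum taken over its 2 arrays together. The part of pancreatic tissue in the acinar signals was not tested, since no pancreas array was analysed here.

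**Figure D4:**
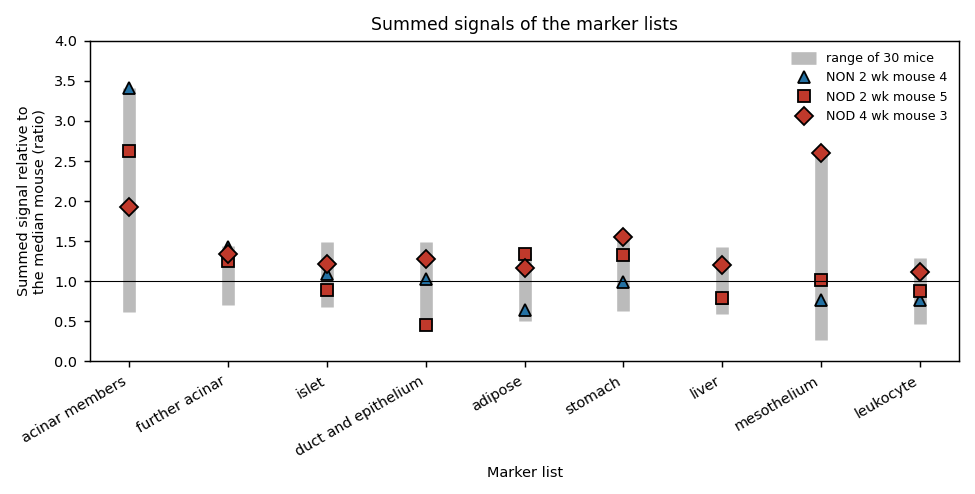
Summed MAS 5.0 signal of each list of marker genes relative to the median mouse. A bar runs from the lowest to the highest of all mice, and points are drawn only for the 3 mice marked as above. Mouse 4 of 2 week old NON is at 3.42 and mouse 5 of 2 week old NOD at 2.63 times the median for the acinar members. For the islet list with all its probe sets they are at 1.09 and 0.886 times, and the duct sum is set by 1 bright Epcam probe set.

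Probe sets most like the acinar level were sought among the 34914 with a signal of 100 or more in 2 or more mice, by the Pearson correlation over the 30 mice. The highest was Prss2 (1435507_x_at, 0.80), followed by Ramp2 (0.72), the amylase probe set 1416055_at (0.71), Asb6 (0.68), Prss2 (1433459_x_at, 0.67), Cdh5 (0.66), Star (0.66), Dab2 (0.66), Rnase1 (0.66) and Pklr (0.65). Of the 10, 4 were of the list of other acinar genes or shared with it, with Prss2 there more than once. That list has 47 probe sets of its own among all 45037, and its share of the 34914 searched was not counted. Without mouse 4 of NON and mouse 5 of NOD at 2 weeks (n = 28), the values fell to 0.33 for Prss2 (1435507_x_at), 0.36 for the amylase probe set, 0.41 for Prss2 (1433459_x_at) and 0.37 for Rnase1. They fell to 0.37 for Asb6, 0.46 for Cdh5, 0.47 for Star, 0.54 for Pklr, 0.57 for Ramp2 and 0.59 for Dab2. These 2 mice have the highest acinar levels, so leaving them out narrows the range, which by itself lowers such values. These are descriptions over mice of 6 groups, and the points share the arrays from which the acinar level was taken.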

How the data were processed

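The authors extracted total RNA from the spleen leukocytes of each mouse, hybridised it to 430A and 430B arrays and deposited 1 MAS 5.0 signal per probe set, an intensity on a linear scale, after global scaling of each array. The methods name a trimmed mean of 100, and the 2% trimmed mean of each deposited array was 250, so signals have no absolute unit. Genes were named from the platform annotation (34945 probe sets with 1 gene, 932 with several and 9160 with none). The members and lists were chosen with earlier results of these data known.

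The 2 arrays of a mouse were joined, a probe set was kept at a signal of 50 or more in 5 or more mice (38293 of 45037), and log2(signal + 10) was tested with limma (version 3.58.1, R 4.3.3) with p adjusted by Benjamini-Hochberg across the kept probe sets, in separate fits for the 15 mice of an age (moderated F-test), the 10 mice of a strain, and all 30 mice for the interaction. That scale understates the changes of dim probe sets. The limma step was also run on simulated, normally distributed values, for the strains at 2 weeks and the age change in NOD only. Those values lack the skew and single high mice of the acinar signals, so nothing is read from that run. Named are all members, other acinar genes that were raised or called in a test, and the 10 probe sets most like the acinar level by each of 2 correlations. Ptf1a, Rbpjl, Bhlha15, Amy1, Cela1 and the shared probe sets 1415954_at, 1422682_s_at and 1429504_at were named after their values were seen. Tables and sequences were read with Python 3.11.15, pandas 2.3.3 and numpy 2.4.6, and plots drawn with matplotlib 3.10.9. Alternatives were other offsets, no filter, quantile normalization, the methods' tests, a replicate block and leaving out mice. The number of arrays limits the precision, and each mouse is 1 replicate.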

Additional observations from a re-analysis of the deposited data

Results flagged for a closer look

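In 11 of the 54 sets of 5 mice that were examined (the 8 genes and the acinar level in 6 groups), 1 mouse lay far from the other 4 by Dixon's criterion on the linear signal (log2 for the acinar level). Chance meets it in about 1 in 20 sets of normally distributed values that were not selected. The genes were chosen with these values known, signals are skewed and the sets share arrays, so the number is a description. Of the 11 values, 5 were in mouse 4 of 2 week old NON. There Cela2a was at 282.4 (the other 4 mice at 24.8 to 97.7), Cpa1 at 66.8 (2.4 to 9.8), Cpb1 at 265.7 (5.1 to 55.2), Pnliprp1 at 59.2 (1.9 to 16.0) and Ctrb1 at 286.1 (56.6 to 119.0). In mouse 5 of 2 week old NOD, Cpa1 was at 37.4 (3.8 to 4.9), Cpb1 at 107.6 (14.7 to 31.3) and the acinar level at 7.0 (5.22 to 5.72). In mouse 3 of 4 week old NOD, Pnliprp1 was at 88.8 (5.1 to 14.0). In 4 week old NON, Ctrb1 was at 225.2 in mouse 4 (9.7 to 23.9) and Cpb1 at 38.1 in mouse 5 (6.3 to 14.1), a signal below 50.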

How the results depend on the processing

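The counts of called members were 0 in all 135 alternatives over the 6 comparisons, among them leaving out mouse 4 of NON and mouse 5 of NOD at 2 weeks together, a setting chosen after seeing the data. The counts of the other acinar genes were 0 in all 113 alternatives of the 5 comparisons without a call. For the strains at 4 weeks, the 1 call became 0 with log2(signal + 50), 0 with quantile normalization and 0 with the replicate block, and ranged from 0 to 2 when 1 mouse was left out. Replicate numbers were not taken as pairs, since the labels give no shared source. Whether same-numbered mice were handled together was not tested. Same-numbered mice of different groups had a median correlation of deviations of 0.04 (75 pairs, 8 over 0.1), against -0.01 (300 pairs, 10 over 0.1) for other numbers. The mouse with 2 or more genes raised became 0 mice at 8 times the median, where 1 gene stayed raised. The acinar level moved with the offset by construction. With log2(signal + 50) it was 6.76 in NOD and 6.55 in C57 at 2 weeks, and 6.74 in NOD, 6.53 in NON and 6.70 in C57 at 4 weeks. With log2(signal + 1) it was 4.90 in 2 week old C57, and 5.43 in NOD, 4.87 in NON and 5.28 in C57 at 4 weeks. Over all probe sets of a gene it was 5.17 in 2 week old C57, 5.51 in 4 week old NOD and 5.39 in 4 week old C57. Leaving out 1 mouse gave 5.55 to 5.99 in NOD, 5.71 to 6.25 in NON and 5.46 to 5.54 in C57 at 2 weeks, and 5.74 to 5.92, 5.36 to 5.52 and 5.66 to 5.87 at 4 weeks.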

Other observations

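By Spearman's correlation, which gives a single high mouse less weight, the 10 probe sets most like the acinar level were of Lmbr1 (0.78), Kpna6 (0.70), Pcdh10 (0.70), Cd151 (0.68), Bbc3 (0.66), Thap7 (0.66), Npnt (0.66), Gabrp (0.65), Coq10a (0.65) and Krtap5-2 (0.65), and 0 of the 10 were of the acinar list. Lmbr1 was at 114 in mouse 4 and Kpna6 at 76.6 in the same mouse of 2 week old NON, against medians of 60 and 80.3.

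Cela1, an elastase gene that is expressed outside the adult pancreas as well, was at 217, 152, 357, 460 and 717 in 2 week old NON, so that its highest signal was in mouse 5 of that group and not in mouse 4. It was at 93, 219, 143, 206 and 283 in 2 week old NOD and at 139.1 to 168.5 in C57. Mouse 5 of 2 week old NON also had the highest Pdia2 signal (887) and the third acinar level of the 30 mice (6.36), with Cpb1 at 52, Cpa1 at 9.8 and Ctrb1 at 119.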
